A study of Mus musculus with 4 samples.

Results

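The FGF receptor genes *Fgfr1*, *Fgfr2* and *Fgfr3*, the ETV transcription factor genes *Etv1*, *Etv4* and *Etv5* and the ERK feedback genes *Dusp6*, *Dusp7*, *Spred1* and *Spred2* were examined in bulk RNA-Seq libraries from nasal process (NP) tissues of E11.5 mouse embryos. These 10 genes were taken by symbol from the 13577 genes in the deposited table, and the Sprouty genes, which belong to the same feedback group, were not among them. The libraries comprised 2 titled control and 2 titled ca-*Acvr1* mutant. By the breeding that the study describes, control embryos carried *P0-Cre* and no ca-*Acvr1(A11)* allele, and ca-*Acvr1(A11)* embryos carried *P0-Cre* together with 1 floxed copy of the transgene, which encodes a constitutively activated ACVR1 (a type I BMP receptor) behind the CAG promoter. *P0-Cre*, present in both groups, is active in the neural crest lineage, and NP tissue also holds cells outside that lineage. The A11 line is a single transgenic line, the mice were on a mixed background, and the number of embryos behind each library is not given in the sources used here. The genotype entries of the libraries name the groups the other way round from their titles. The titles are used here, with the terms control and mutant, and every direction below would turn over if the genotype entries were right.

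FGF ligands bind FGF receptors, which are receptor tyrosine kinases, and the activated receptor passes its signal through adaptor proteins and RAS to the kinases RAF, MEK and ERK. ERK activity switches on the ETV genes examined here, which encode the PEA3 group of ETS factors, and genes whose products restrain the pathway. Among the latter, DUSP6 and DUSP7 are phosphatases that act on ERK in the cytoplasm, and SPRED proteins act at RAS together with neurofibromin. In the developing face, FGF8 from the epithelium of the nasal pits acts on the neighboring neural crest mesenchyme, and the levels of these target genes are widely used as a readout of FGF activity.

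The libraries were made with a 3′ kit, in which reads fall near the poly(A) end of a transcript and each transcript gives about the same number of reads whatever its length. Values are CPM, reads scaled to a common library total. The step between values gave totals of 1956831 to 2408827 reads, and a single read then stood for 0.415 to 0.511 CPM. Over all genes, 43 values in 22 genes were not whole numbers of reads, and 0 of the 10 genes examined here were affected. *Acvr1*, from which the transgene derives, measured 21.5 and 23.1 CPM in the controls and 24.1 and 12.6 CPM in the mutants (log2 fold change −0.33, standard error 0.28). These groups overlap, and the sources used here do not give the 3′ end of the transgene's transcript. *Acvr1* reads therefore check neither the titles nor whether the transgene was expressed. The labels do not say whether the libraries of a group came from separate embryos or pools, and p-values measure the spread between these libraries only.

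All 10 genes had a mean above 1 CPM in the 4 libraries and were tested with the rest of the table. At an adjusted p under 0.05 from limma, 0 of the 10 were called, against 0.899% of the 12462 genes tested. At an unadjusted p under 0.05 from limma there was 1, *Dusp7*, which was lower, against 4.12% of all genes that were lower and 9.55% in either direction. The other tools, run on the recovered reads, also called 0 of the 10, against 1.31% of all genes called by edgeR, 0.356% by DESeq2 and 1.24% by limma-voom. At an unadjusted p under 0.05 edgeR gave 2 of the 10, *Fgfr1* and *Dusp7*, DESeq2 gave 1, *Dusp7*, and limma-voom gave 2, *Fgfr1* and *Dusp7*, against 10%, 2.65% and 10.2% of all genes. The log2 fold changes ran from −0.42 to 0.21, and the 95% interval of limma included 0 for 9 of the 10 genes.

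The control and mutant libraries did not overlap for 8 of the 10 genes, against 38.8% of all genes tested. The mutant libraries were both below control for 5 of them, *Fgfr1*, *Fgfr2*, *Fgfr3*, *Etv1* and *Dusp7*, against 16.8% of all genes. They were both above control for 3, *Etv5*, *Dusp6* and *Spred1*, against 21.9%. The median log2 fold change of the 10 genes was −0.19, where that of all genes tested was 0.03 with quartiles at −0.16 and 0.23. Of the 10 genes, 5 lay below the lower quartile, 5 between the quartiles and 0 above the upper one. Leaving out control replicate 1 moved the median to −0.30 and leaving out control replicate 2 moved it to −0.06, so its size rested on the control libraries.

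**Figure D1:**
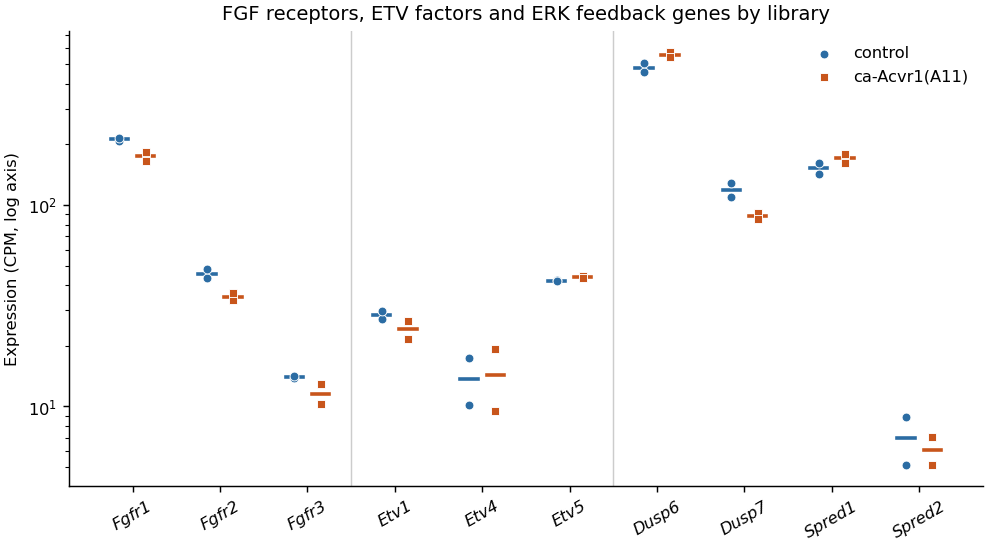
Expression of the 10 genes in CPM on a log axis, with a circle for each control library, a square for each mutant library and a bar at each group mean (n = 2 per group). The 3 receptor genes sit lower in both mutant libraries, while *Etv4* and *Spred2* spread more within a group than between groups.

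The receptors were examined first. *Fgfr1* encodes a receptor of facial mesenchyme, and in the RefSeq gene table it occupies chromosome 8 (GRCm38) from 25518759 to 25575718. Its last exon in the GENCODE annotation, where a 3′ kit collects most reads, spans 25573745 to 25575718. *Fgfr1* measured 207 and 215 CPM in the controls and 183 and 165 CPM in the mutants, from 353 to 485 reads each. Both mutant values lay below both control values, by means of 174 ± 12.7 against 211 ± 5.54 CPM (SD, n = 2 each). The difference did not pass the test after adjustment (log2 fold change −0.28 ± 0.14 SE, limma adjusted p = 0.549), and the interval of the fold ran from 0.673 to 1.01 times control on the scale of CPM + 1. Every fold interval below is on that scale, which understates changes of genes with few reads.

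*Fgfr2*, whose splice forms serve epithelium and mesenchyme with different ligands, lies on chromosome 7 from 130162451 to 130266808. It measured 43.4 and 47.9 CPM in the controls and 33.6 and 36.5 CPM in the mutants. Again both mutant values were the lower ones. The log2 fold change of −0.37 had a standard error of 0.20 (adjusted p = 0.575 from limma) and an interval from 0.584 to 1.02 times control. Reads at the 3′ end do not separate the epithelial and mesenchymal splice forms, since the alternative exon lies in the extracellular part of the receptor.

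*Fgfr3*, a receptor best known for restraining growth of cartilage, lies on chromosome 5 from 33721724 to 33737068. Its values were 13.8 and 14.2 CPM in the controls and 12.9 and 10.3 CPM in the mutants, or 22 to 32 reads. The groups did not overlap, and the gap between the nearest libraries was small against the gap between the mutant replicates. The interval, from 0.550 to 1.27 times control, spans changes in either direction (log2 fold change −0.26 ± 0.29 SE, limma adjusted p = 0.860).

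Summed over the 3 genes, receptor expression was 265 and 277 CPM in the controls and 230 and 212 CPM in the mutants, a ratio of group means of 0.814. Within each library the makeup of this sum varied little. *Fgfr1* gave between 77.6% and 79.7% of it, *Fgfr2* between 14.6% and 17.3% and *Fgfr3* between 4.86% and 5.61%. The ranges of the 2 groups overlapped for *Fgfr1*, *Fgfr2* and *Fgfr3* alike. *Fgfrl1*, which encodes a receptor relative without a kinase domain, measured 40.9 and 36.8 CPM in the controls and 31.97 and 37.0 CPM in the mutants, and its groups overlapped (log2 fold change −0.17, limma adjusted p = 0.869). *Fgfr4*, the remaining kinase receptor, is not among the genes listed in the table.

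ETV factors were examined next, since their transcripts follow FGF activity closely in many embryonic tissues. *Etv1* lies on chromosome 12 from 38780082 to 38870483. It measured 27.1 and 29.7 CPM in the controls and 21.6 and 26.7 CPM in the mutants. Both mutant libraries were below control, the nearer of them by less than 1 CPM (log2 fold change −0.23 ± 0.23 SE, limma adjusted p = 0.836).

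*Etv4*, which encodes PEA3 itself and lies on chromosome 11 from 101769747 to 101785310, measured 10.2 and 17.3 CPM in the controls and 9.55 and 19.2 CPM in the mutants. In each group 1 library was near 10 CPM and the other well above it, and the mutant values lay on either side of the control values. Its log2 fold change of 0.03 had the second widest interval of the 10 genes, from 0.640 to 1.62 times control, and its sign turned under TMM and RLE scaling and in limma-voom. With 20 to 41 reads per library and replicates this far apart, the interval spans changes in either direction.

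*Etv5*, on chromosome 16 from 22381313 to 22439570, had the closest replicates of the 10 genes relative to their level, at 42.4 and 41.7 CPM in the controls and 44.4 and 43.5 CPM in the mutants. The groups did not overlap, yet their means differed by under 2 CPM, at 42.1 ± 0.485 and 44.0 ± 0.637 CPM (SD, n = 2 each). The log2 fold change was 0.06 (standard error 0.19, adjusted p = 0.959 from limma), and the interval excluded a fold below 0.796 or above 1.37. Leaving out any 1 library kept it between 0.05 and 0.08.

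As a group the ETV genes summed to 79.7 and 88.8 CPM in the controls and 75.6 and 89.4 CPM in the mutants, which overlap, with a ratio of group means of 0.979. *Etv1* made up 33.97% and 33.5% of the sum in control and 28.6% and 29.8% in mutant libraries. The shares of *Etv4* and *Etv5* overlapped between the groups.

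The feedback genes that act on ERK showed the largest differences of the 10 genes in each direction. *Dusp6*, the phosphatase gene most often used to map FGF activity in embryos, lies on chromosome 10 from 99263231 to 99267489, with its last exon from 99265992 to 99267488. It measured 457 and 505 CPM in the controls and 575 and 540 CPM in the mutants, from 894 to 1385 reads each. The mutant libraries were both higher, with means of 557 ± 25.1 against 481 ± 33.9 CPM (SD, n = 2 each), but the difference did not pass the test (log2 fold change 0.21 ± 0.13 SE, limma adjusted p = 0.681). With the most reads of the 10 genes, it also had the narrowest interval on the log2 scale, from 0.958 to 1.40 times control.

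*Dusp7*, which encodes a close relative of DUSP6, lies on chromosome 9 from 106368560 to 106375724, with its last exon from 106373639 to 106375724. It measured 129 and 109 CPM in the controls and 90.9 and 85.6 CPM in the mutants, or 252, 246, 219 and 183 reads. Both mutant libraries lay below both control libraries, and the means were 88.3 ± 3.74 and 119 ± 13.8 CPM (SD, n = 2 each). *Dusp7* had the smallest p of the 10 genes (log2 fold change −0.42 ± 0.16 SE, limma adjusted p = 0.322) and ranked 476 by p among all genes tested. Over all alternatives its adjusted p ranged from 0.197, without control replicate 2, to 1.00 in DESeq2, and with 1 library left out the log2 fold change ranged from −0.54 to −0.30.

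The ratio of *Dusp6* to *Dusp7* within a library does not depend on the scaling of the libraries. It was 3.55 and 4.62 in control and 6.32 and 6.30 in mutant libraries, so that the mutant libraries were both higher and nearly equal. An exact permutation test of the log2 ratio, two-sided, gave p = 0.333, the smallest p that 2 libraries against 2 allow. The ratio was formed after the values of the genes were known. Because both mutant libraries were above control in *Dusp6* and below it in *Dusp7*, the ratio had to separate the groups. The test then had to give this p, and neither adds to the values of the single genes.

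Promoter sequence was available for both phosphatase genes in RefSeq (GRCm38.p6). The stretches just upstream of their start are shown because the estimates of these related genes lay in opposite directions, though neither gene was called. A relation of the sequences to those directions was not tested. The first covers 250 bases and the second 178 bases, both on the plus strand and written 5′ to 3′, and capitals mark each CG pair. Each stretch ends at the base before the gene's start in the RefSeq gene table.

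*Dusp6*, chr10:99262981-99263230: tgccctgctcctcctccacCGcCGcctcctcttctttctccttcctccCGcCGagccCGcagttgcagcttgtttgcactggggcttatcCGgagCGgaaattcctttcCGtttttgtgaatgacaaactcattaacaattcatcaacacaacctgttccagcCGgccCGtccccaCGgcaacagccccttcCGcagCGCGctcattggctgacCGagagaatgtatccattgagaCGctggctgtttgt

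*Dusp7*, chr9:106368382-106368559: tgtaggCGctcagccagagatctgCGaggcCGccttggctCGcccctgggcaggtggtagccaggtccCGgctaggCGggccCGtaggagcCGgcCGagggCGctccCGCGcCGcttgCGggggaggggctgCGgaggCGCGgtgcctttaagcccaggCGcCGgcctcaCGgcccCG

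The *Dusp6* stretch holds 16 CG pairs at a GC content of 56.4%, and the shorter *Dusp7* stretch holds 21 at 76.4%. For 8 of the 10 genes RefSeq gave 11 windows of 300 bases, from 250 before to 50 after a start site, and their GC content ran from 43.7% to 78.7% where the median of all 32851 windows was 52.7%. ETS factors, ETV factors among them, bind sites with a GGAA core, and the windows were searched on both strands for CCGGAAG and CAGGAAG. Of the 11 windows 1 held either motif, against 20.9% of all windows. That match was CAGGAAG in an *Fgfr2* window, 209 bases before the RefSeq start, shown with the match in capitals in the stretch chr7:130266999-130267028 (minus strand): ctttaagaaggCAGGAAGcactctgaactg. A match is a run of letters, and binding was not measured.

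*Spred1*, which encodes a membrane-bound inhibitor of RAS activation, lies on chromosome 2 from 117121071 to 117182279. It measured 143 and 161 CPM in the controls and 179 and 162 CPM in the mutants. Both mutant values were above control, but the nearest libraries of the groups differed by less than 1 CPM (log2 fold change 0.16 ± 0.15 SE, limma adjusted p = 0.809). *Spred2*, on chromosome 11 from 19924442 to 20024026, measured 5.11 and 8.88 CPM in the controls and 7.06 and 5.15 CPM in the mutants. These values rest on 10 to 20 reads, and the groups overlapped. On the scale of CPM + 1, the interval from 0.530 to 1.55 times control was the widest of the 10 genes (log2 fold change −0.14 ± 0.38 SE, limma adjusted p = 0.952). Summed over *Dusp6*, *Dusp7*, *Spred1* and *Spred2*, expression was 733 and 784 CPM in the controls and 851 and 792 CPM in the mutants, mostly from *Dusp6*.

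**Figure D2:**
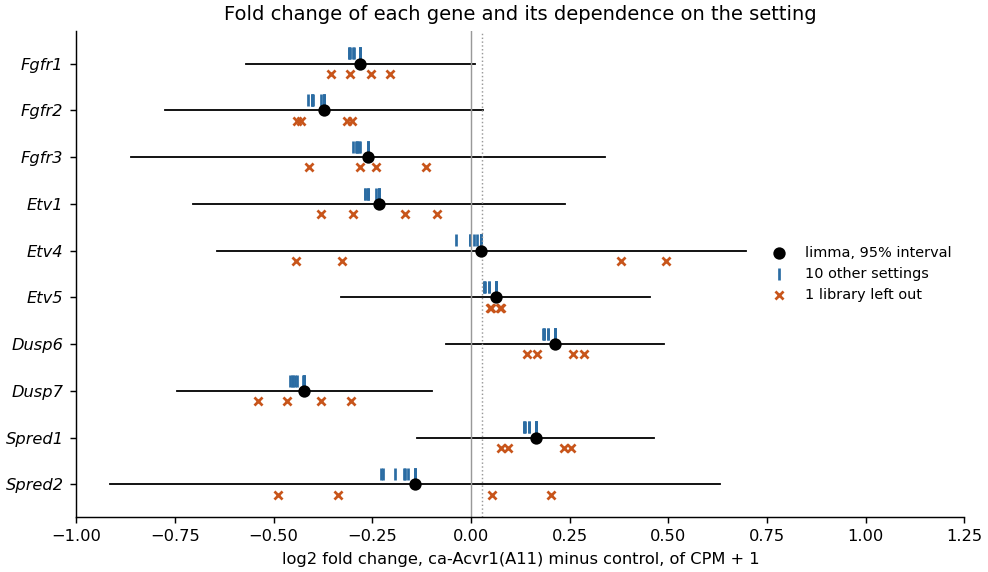
Log2 fold change of CPM + 1, mutant minus control, for each of the 10 genes. A dot with its line gives limma's estimate and 95% interval, ticks above it the 10 other settings, crosses below it the fits with 1 library left out, and the dotted line the median of all genes. The interval of *Dusp7* alone lies wholly on 1 side of 0, and the crosses of *Etv4* and *Spred2* fall on both sides.

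The other genes of the pathway were followed in 5 lists written by hand, with no test of a list as a whole. Among the receptor relatives and co-receptors, 4 of 6 genes were listed and tested, and 1 was called. *Flrt2*, which encodes a membrane protein of a family that binds FGF receptors and guides migrating cells, measured 220 and 249 CPM in the controls and 151 and 154 CPM in the mutants. It fell by 0.62 on the log2 scale (standard error 0.14, adjusted p = 0.0271 from limma), with the mutant libraries well below control. The call was lost in DESeq2 (adjusted p = 0.0706) and without control replicate 2, mutant replicate 1 or mutant replicate 2 (limma adjusted p = 0.107, 0.177 and 0.140). *Flrt3*, of the same family, measured 213 and 273 CPM in the controls and 200 and 204 CPM in the mutants and was not called (log2 fold change −0.26, limma adjusted p = 0.635). *Flrt1*, also of this family, lay in the other direction, at 6.13 and 4.44 CPM in the controls and 6.23 and 6.55 CPM in the mutants. It had 10 to 15 reads per library and was not called (log2 fold change 0.25, limma adjusted p = 0.910).

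Among the ligands, 11 of 18 genes were listed, 7 were tested and 1 was called. *Fgf15*, a ligand found in the embryonic forebrain among other sites, rose from 69.0 and 40.0 CPM in control to 103 and 108 CPM in mutant libraries (log2 fold change 0.99 ± 0.20 SE, limma adjusted p = 0.00704). It was above control in both mutant libraries, and the call was lost in DESeq2 (adjusted p = 0.117) and without control replicate 2 (limma adjusted p = 0.105). *Fgf9* had the next smallest p, at 18.9 and 17.8 CPM in the controls and 29.9 and 31.4 CPM in the mutants, and was not called (log2 fold change 0.71, limma adjusted p = 0.223). *Fgf8*, the ligand of the nasal pit epithelium, measured 37.3 and 33.3 CPM in the controls and 32.4 and 36.0 CPM in the mutants, with overlapping groups (log2 fold change −0.04, interval from −0.47 to 0.38).

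Of the 22 genes of the cascade from adaptor proteins through RAS, RAF and MEK to ERK and its kinase targets, 20 were tested and 0 were called by limma, edgeR, DESeq2 or limma-voom. In all 4 tools 0 had an unadjusted p under 0.05. Their median log2 fold change was 0.06 and the range −0.45 to 0.34. The RAS genes *Hras* and *Nras* had the smallest p. *Hras* measured 40.4 and 32.4 CPM in the controls and 42.8 and 49.6 CPM in the mutants (log2 fold change 0.34, limma adjusted p = 0.646), and *Nras* overlapped between the groups (log2 fold change 0.21, limma adjusted p = 0.715).

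Of the 18 other feedback genes 16 were tested, 0 were called, and 0 had an unadjusted p under 0.05 in limma, edgeR, DESeq2 or limma-voom. Their median log2 fold change was 0.11 as deposited and 0.08 with whole-read values. By sign 13 were higher and 3 lower, against 6752 higher and 5710 lower of all 12462 genes tested. *Spred3* measured 5.11 and 4.88 CPM in the controls and 4.57 and 3.28 CPM in the mutants, or 7 to 11 reads. *Dusp4* and *Dusp9*, which encode further phosphatases of the same class, had log2 fold changes of 0.27 and 0.09, and *Dusp5* is not among the genes listed. *Nf1*, the gene of neurofibromin, measured 30.7 and 29.3 CPM in the controls and 41.1 and 32.3 CPM in the mutants (log2 fold change 0.27, limma adjusted p = 0.764).

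The Sprouty genes *Spry1*, *Spry2* and *Spry4*, also in this list, encode inhibitors of receptor signaling to RAS and are the only pathway genes examined here with values that are not whole reads. As deposited their log2 fold changes were 0.25, 0.30 and 0.44, and 0 were called (adjusted p = 0.787, 0.646 and 0.767 from limma). *Spry2* measured 51.6 and 56.8 CPM in the controls and 63.1 and 70.7 CPM in the mutants, and the value of 63.1 lies 10 CPM above a whole-read value of 53.1. *Spry1* had 2 such values, both in mutant libraries, at 34.7 and 33.8 CPM with whole-read values of 30.7 and 31.8. *Spry4* had 1, in mutant replicate 2, at 10.1 CPM with a whole-read value of 5.15. With whole-read values in place of these 4, the log2 fold changes were 0.13, 0.18 and 0.01 for *Spry1*, *Spry2* and *Spry4*, and 0 were called. How the values came to differ from whole reads was not tested.

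Of the 20 genes of the list of ERK-responsive transcription genes 15 were tested and 0 were called by limma, edgeR, DESeq2 or limma-voom, with 3, 2, 0 and 3 at an unadjusted p under 0.05. *Ets2*, an ETS factor gene, measured 36.8 and 37.7 CPM in the controls and 24.9 and 24.8 CPM in the mutants (log2 fold change −0.57, limma adjusted p = 0.333). *Junb*, a component of AP-1, measured 5.62 and 3.995 CPM in the controls and 10.8 and 9.36 CPM in the mutants (log2 fold change 0.94, limma adjusted p = 0.336). The groups did not overlap in either gene, and the values of *Junb* rest on 9 to 26 reads. *Ccnd1*, with 1826 to 2711 reads, also had an unadjusted p under 0.05 in limma and limma-voom. It measured 933 and 904 CPM in the controls and 1125 and 1112 CPM in the mutants (log2 fold change 0.28, limma adjusted p = 0.507). *Egr1*, an immediate-early gene, measured 4.60 and 5.77 CPM in the controls and 5.81 and 5.62 CPM in the mutants, and *Fos* is not among the genes listed.

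**Figure D3:**
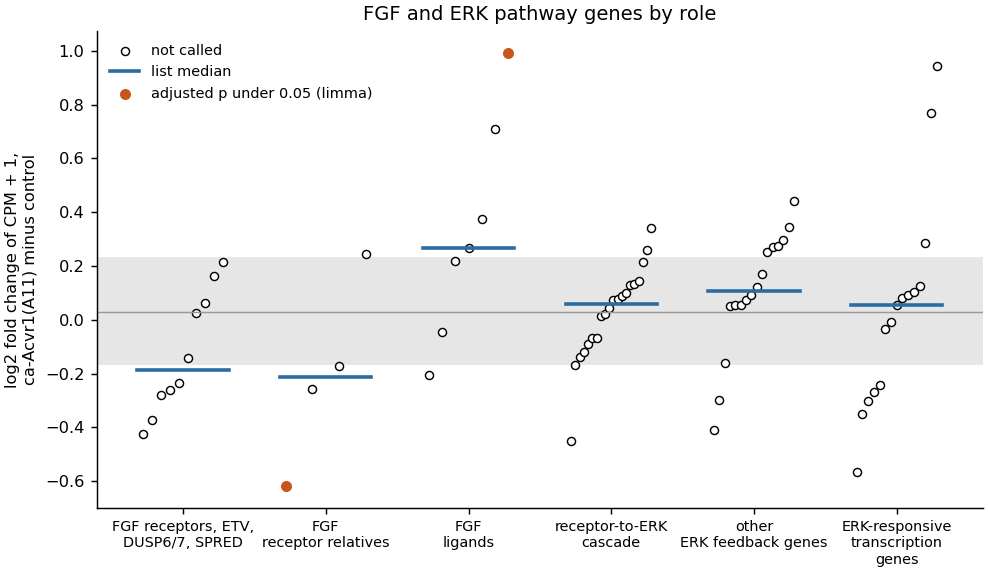
Log2 fold change of CPM + 1, mutant minus control, for each gene tested in the 10-gene set and in 5 lists of other pathway genes. Filled points passed an adjusted p under 0.05 in limma, which were *Flrt2* and *Fgf15*, blue bars mark list medians, and the gray band and line mark the quartiles and median of all genes.

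The tissue held several cell types, and markers of mesenchyme, epithelium and macrophages included genes called between the groups. Of 12 cranial mesenchyme markers 8 were called lower and 0 higher, with a median log2 fold change of −0.96. DESeq2 called 5 of them, and with 1 library left out limma called between 6 and 10. *Prrx1*, a mesenchymal homeobox gene, measured 224 and 241 CPM in the controls and 94.7 and 108 CPM in the mutants. *Pdgfra*, in the same list, has values that are not whole reads. Its log2 fold change was −2.60 as deposited and −1.45 in the setting that changed it most. The list median was −0.96 with whole-read values as well. *Pdgfra* is the lowest of the list either way, so the median does not show how far that gene moved. Of the 12 epithelial markers tested 2 were called higher, *Cdh1* and *Epcam*, with a median of 0.51. Log2 fold changes were positive for 10 of the 12 and negative for *Krt14* (−0.25) and *Krt8* (−0.03). *Trp63* was at 0.12 with overlapping groups. DESeq2 called 0, and limma called 1 without control replicate 2, 0 without mutant replicate 1 and 1 without mutant replicate 2. *Epcam*, an epithelial adhesion gene, measured 59.3 and 70.6 CPM in the controls and 110 and 103 CPM in the mutants.

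All 11 neural markers had positive log2 fold changes, with 0 called by any of the 4 tools (2 by limma without control replicate 1), 5 at an unadjusted p under 0.05 in limma and a median of 0.39. Of the 8 macrophage markers 2 were called higher, *Cx3cr1* and *Mrc1*, with a median of 0.82. *Cx3cr1* had 44 to 109 reads per library, and the other macrophage markers had at most 39. With a pseudocount of 0.1 CPM, or a filter at a mean above 5 CPM, limma did not call *Mrc1*. DESeq2 called 0 and limma-voom called *Cx3cr1* alone, as did limma without control replicate 1 or mutant replicate 1, while without mutant replicate 2 limma called 0. Summed CPM over the mesenchyme list, at whole-read values, was 1424 to 1690 in control and 854 to 855 in mutant libraries. The sums were 264 to 280 and 398 to 433 for epithelium, 944 to 964 and 1153 to 1241 for neural tissue, and 50.6 to 51.9 and 85.9 to 125 for macrophages. Endothelial, erythroid and muscle lists had medians of 0.00, −0.12 and 0.09, with 0 genes called by any of the 4 tools and 0 at an unadjusted p under 0.05 in limma. Every marker listed in the table had reads in at least 3 libraries (*C1qa* measured 0 in control replicate 1), and 7 markers, among them *Hba-a1*, *Hbb-bt*, *Myod1* and *Myog*, are not listed in it.

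The receptor, ETV, *Dusp* and *Spred* values stand beside these shifts. The summed ratio of mutant to control means was 0.549 for the mesenchyme list and 1.53 for the epithelial list, against 0.814 for the receptors, 0.979 for the ETV genes and 1.08 for the feedback genes. In bulk tissue, fewer cells of a type and less RNA per cell cannot be told apart. The part of these shifts in the values of the 10 genes was not tested.

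**Figure D4:**
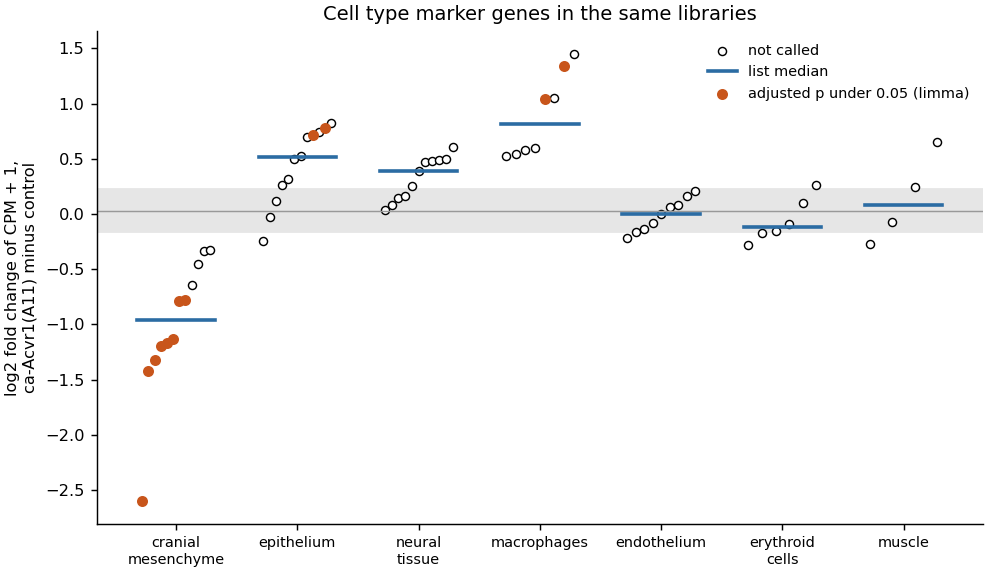
Log2 fold change of CPM + 1, mutant minus control, for marker genes of 7 cell types, drawn as in the plot of pathway genes. Mesenchyme markers lie below the gray band of all genes with a median of −0.96, while epithelial, neural and macrophage medians of 0.51, 0.39 and 0.82 lie above it.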

How the data were processed

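RNA-Seq libraries from E11.5 nasal process tissues (2 per group, made with the QuantSeq 3′ kit) were analyzed. The authors deposited CPM values for 13577 genes in 4 columns, scaled by them to library totals, and the submitters' processing notes name mm10, STAR, featureCounts 1.6.4 and DESeq2 without a role for each. Totals of 1956831 to 2408827 reads were recovered from the step between values, with 99.921% of 54308 values whole within 0.02 reads. For 42 of the other 43 a whole number of reads was reached by a shift of a whole CPM below 10 or a multiple of 10 CPM up to 500. No column went unused.

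Fold changes came from limma 3.58.1 (R 4.3.3) with a mean-variance trend, fitted to log2(CPM + 1) of 12462 genes whose mean exceeded 1 CPM, group alone in the model, and Benjamini-Hochberg adjustment over all of them. A log2(CPM + 1) scale understates changes of genes with few reads. Alternatives were edgeR 4.0.16 (quasi-likelihood), DESeq2 1.42.0 and limma-voom on recovered reads, other scalings, filters and a pseudocount of 0.1 CPM, a replicate block, whole-read values and each library left out. Recovered reads were the deposited values rounded to the nearest read. Values that were not whole reads, as in *Spry1*, *Spry2*, *Spry4* and *Pdgfra*, therefore entered edgeR, DESeq2 and limma-voom without the shift to a whole-read value. Simulated data held 200 changed genes, all drawn from genes with a mean above 10 CPM, and used 1 common dispersion of 0.01164 for every gene. There limma (12400 genes run) called 81% of those changed by 1 on the log2 scale and 100% of those changed by 2. It made 10 false calls. These shares do not describe genes below 10 CPM, such as *Spred2*, or changes as small as those of the 10 genes. The 10 genes and all lists were chosen with earlier results of these data known. The genes named were these 10, *Acvr1*, the genes called in each pathway list or otherwise those with the smallest p, and paralogs, and *Flrt1*, *Flrt3*, *Fgf8*, *Fgf9*, *Ccnd1*, *Egr1*, *Fos*, *Spry1*, *Spry4* and the marker genes were named after their values were seen. Positions and sequences are from RefSeq and GENCODE M21 for GRCm38, the build that mm10 denotes. Figures were drawn with matplotlib 3.10.9, and Python was 3.11.15.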

Additional observations from a re-analysis of the deposited data

How the results depend on the processing

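Over 14 alternatives, 10 of them settings and 4 with a library left out, 0 of the 10 genes were called in any. Of the 140 values of their log2 fold changes, 133 kept their sign and 7 turned, all in *Etv4* or *Spred2*. *Etv4* (0.03) was at −0.0027 with TMM scaling, −0.0017 with RLE scaling and −0.039 in limma-voom, and ranged from −0.44 to 0.49 with a library left out. *Spred2* (−0.14) ranged from −0.49 to 0.20 with a library left out. The median of the 10 genes ranged from −0.30 to −0.059 with a library left out and stayed between −0.25 and −0.19 in the 10 settings. With a library left out, the lone sample of its group is assumed to vary like the others.

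The labels tie the replicate numbers to no litter or batch, and deviations of the replicates correlated with r = 0.07 across genes, so the numbers were not taken to pair the libraries. With the replicate block 0 of the 10 genes were called, with a median of −0.19, and 229 genes of the whole table against 112. DESeq2 called 39 of all genes. Depth limits *Spred2*, *Etv4* and *Fgfr3* most, at 10 to 41 reads per library. Among genes with a mean of 1 to 10 CPM the median half-width of the 95% interval was 0.91 on the log2 scale, against 0.33 for those from 50 to 1000 CPM.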
